A study of Rattus norvegicus with 18 samples.

Results

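The 4 AMPA and 5 kainate receptor subunit genes were taken by symbol, 9 of the 38445 genes counted, and each symbol matched 1 gene. AMPA and kainate receptors are the glutamate-gated ion channels that carry most fast excitatory transmission in the brain. AMPA receptors are tetramers built from the products of Gria1 to Gria4, and the GluA2 subunit made by Gria2 is RNA-edited so that receptors containing it pass little calcium. Kainate receptors are tetramers of GluK1 to GluK3, made by Grik1 to Grik3, which can form channels on their own, and of GluK4 and GluK5, made by Grik4 and Grik5, which need one of those partners. In the VTA (ventral tegmental area), where dopamine neurons of the reward circuit lie, AMPA receptor subunit composition is known to change at synapses after exposure to addictive drugs.

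VTA tissue came from adult male wild-type (WT) Sprague Dawley rats on Lieber-DeCarli liquid diets for 15 or 16 days. There were 6 rats taken 24 h after withdrawal from a diet with 9% (v/v) ethanol (withdrawal, rats 13 to 18), 6 taken from the same ethanol diet at 0 h (chronic ethanol, rats 7 to 12) and 6 on the control diet (control, rats 1 to 6). Each rat gave 1 stranded mRNA library. Tissue pieces hold neurons and glia together, so fewer cells of a type and less RNA per cell cannot be told apart in any value given here.

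Libraries held 29.6 to 45.1 M counts, and levels are CPM, which scale counts to library size with TMM factors. At this depth a count of 3 stands for 0.0665 to 0.101 CPM, so all 9 genes lay far above the floor in every rat. The least counted was Grik1, with 217 to 1832 counts, and the most counted Gria2, with 4870 to 13539. All 9 passed the filter on low counts in every comparison, in which 17637 genes were tested.

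Before the results, 4 libraries stand apart in markers of cells and regions, and are followed by number throughout. Withdrawal rat 13 had 14990 CPM of Tph1, an enzyme of melatonin synthesis in the pineal, against 0.547 to 7.43 CPM in the 14 remaining rats. It also had 810 CPM of Slc17a7, the vesicular glutamate transporter VGLUT1, which was at 2.24 to 23.8 CPM in those 14. Withdrawal rat 17 had 17.6 CPM of Th (tyrosine hydroxylase, which starts dopamine synthesis) and 2.56 CPM of the dopamine transporter Slc6a3, against 233 to 763 and 243 to 788 CPM in the 14. Rats 13 and 8 were also below these ranges, at 117 and 69.0 CPM of Th and 117 and 68.2 CPM of Slc6a3. Rat 5 was within the Th range at 238 CPM and below that of Slc6a3 at 235 CPM. Chronic ethanol rat 8 and control rat 5 had 409 and 509 CPM of Slc17a7, and 30.7 and 31.4 CPM of Hoxb3, a hindbrain homeobox gene at 0.0335 to 1.14 CPM in the 14. Gabra6, a marker of cerebellar granule cells, was at 0.189, 0.554, 6.00 and 0.802 CPM in rats 13, 17, 8 and 5, and at up to 3.51 CPM in the 14.

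Summed over whole marker lists, the 11 dopamine neuron genes gave 499.7 to 3225 CPM in withdrawal, 563 to 3778 in chronic ethanol and 1309 to 3860 in control rats. The lowest of these sums were those of rats 17, 8 and 1. The 6 forebrain and pontine glutamate neuron genes summed to 19.7 to 816, 4.37 to 464 and 6.23 to 583 CPM in withdrawal, chronic ethanol and control rats. For the 6 pineal genes the sums were 3.36 to 15980, 3.44 to 10.0 and 2.81 to 6.68 CPM in the same order of groups. The 6 hindbrain genes, of which Hoxa2, Hoxa3 and Hoxa5 were at 0 in every library, summed to 0 to 4.57, 0.0670 to 43.3 and 0.0758 to 49.8 CPM. The highest sums were those of rat 13 for the glutamate neuron and pineal lists in withdrawal, and of rats 8 and 5 for the glutamate neuron and hindbrain lists in chronic ethanol and control.

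Levels of different genes were compared per kilobase of annotated exon, as mean CPM per kb over the 18 rats. Gria2 stood highest of the 9 at 36.0 ± 6.69 (SD, n = 18), followed by Gria4 at 32.0 ± 5.83, Gria3 at 24.4 ± 4.14 and Gria1 at 17.7 ± 4.73. Among kainate subunits the partner-dependent Grik5 led at 18.5 ± 2.57, before Grik4 at 11.0 ± 1.72, Grik2 at 7.94 ± 1.30, Grik3 at 4.17 ± 1.08 and Grik1 at 2.73 ± 1.57. Set among all 17637 genes tested, Gria2 lay at the 88.1st percentile of CPM per kb and Grik1 at the 37.2nd.

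The order within each family was nearly the same in every rat. Gria4 stood above Gria3, and Gria3 above Gria1, in 18 of 18 rats. Likewise Grik5 exceeded Grik4, Grik4 exceeded Grik2 and Grik2 exceeded Grik3 in 18 of 18 rats. Gria2 was above Gria4 in 15 of 18, the exceptions being rats 17, 8 and 5, and these neighbours lie within their spread. Grik3 was above Grik1 in 16 of 18, with the reverse in rats 8 and 5. Grik5 and Gria1 could not be ordered, since Grik5 was the higher in 9 of 18 rats. The annotated exons sum to 2866 bases for Gria1 and 6860 for Gria2, so the distance between genes also depends on how much of each transcript is annotated.

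On Rnor_6.0, the AMPA genes were annotated at chr10:42441723-42760200 on the plus strand (Gria1), chr2:179584302-179704629 on the minus strand (Gria2), chrX:127561843-127829763 on the plus strand (Gria3) and chr8:1548145-2045874 on the minus strand (Gria4). The kainate genes lay at chr11:27811954-28213940 (Grik1), chr20:53791428-54517691 (Grik2), chr8:46804134-47237546 (Grik4) and chr1:81885516-81946731 (Grik5), all on the minus strand, and at chr5:143500441-143715546 on the plus strand (Grik3). Counts are those of exons. The microRNA gene Mir2985 shares 29 exon bases with Gria2 on the same strand, and a gene on the other strand shares 54 exon bases with Grik3.

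**Figure D1:**
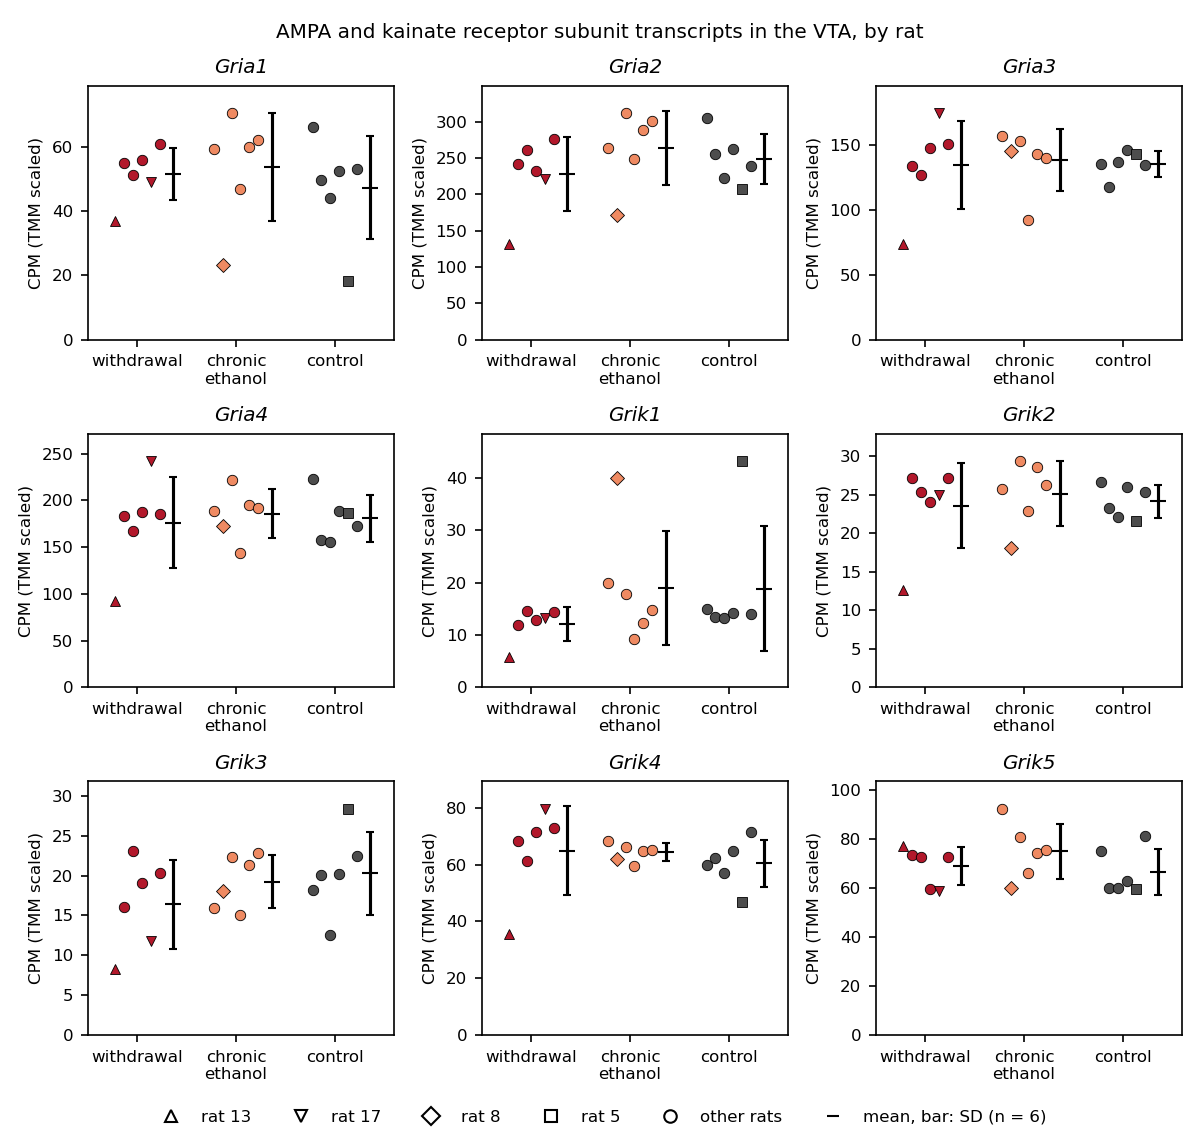
Level of each subunit gene in every rat, in TMM-scaled CPM (vertical axes from 0), with 1 point per rat and the mean and SD of each group (n = 6) beside it. Marked symbols are withdrawal rats 13 and 17, chronic ethanol rat 8 and control rat 5. The groups overlap for all 9 genes, and Grik1 is at 40.0 CPM in rat 8 and 43.2 CPM in rat 5 against at most 19.9 CPM elsewhere.

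The comparison of chronic ethanol with control asks what 15 or 16 days of the ethanol diet do to these transcripts, that of withdrawal with control adds 24 h without ethanol, and that of withdrawal with chronic ethanol concerns those 24 h alone. No subunit gene passed the test in any of these 3 comparisons. With edgeR's quasi-likelihood test over all 18 libraries, 0 of 9 were below an adjusted p of 0.05 (Benjamini-Hochberg), and 0 of 9 had an unadjusted p under 0.05. DESeq2 and limma-voom also called 0 of 9 in each comparison.

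The same test called few genes anywhere. Of the 17637 genes, edgeR called 0 (0%) in withdrawal against control, 0 (0%) in withdrawal against chronic ethanol and 0 (0%) in chronic ethanol against control. At an unadjusted p under 0.05 it had 1732 (9.82%), 2704 (15.3%) and 1030 genes (5.84%) in these comparisons. DESeq2 called 47, 301 and 46 genes, and limma-voom 0, 0 and 2.

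Nor did the rats of any pair of groups separate for any subunit gene, as 0 of 9 were higher, and 0 of 9 lower, in all 6 rats of one group than in all 6 of the other. Among all genes tested, 0.227% were higher and 0.38% lower without overlap in withdrawal against control. In withdrawal against chronic ethanol these shares were 0.811% and 0.544%, and in chronic ethanol against control 0.522% and 0.408%.

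Fitted changes were small beside their intervals for most members. In withdrawal against control, 3 of the 9 fitted log2 changes were above 0 and 6 below, with a median of -0.035 against 0.015 over all genes. In withdrawal against chronic ethanol, 1 was above 0 and 8 below, with a median of -0.094 against 0.016. In chronic ethanol against control, 8 were above 0 and 1 below, with a median of 0.060 against -0.0039. The comparisons share groups, so these counts do not stand as separate evidence. Leaving out rats 13, 17, 8 and 5 left 0 of 9 called in each comparison and moved every fitted change to between -0.17 and 0.19.

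**Figure D2:**
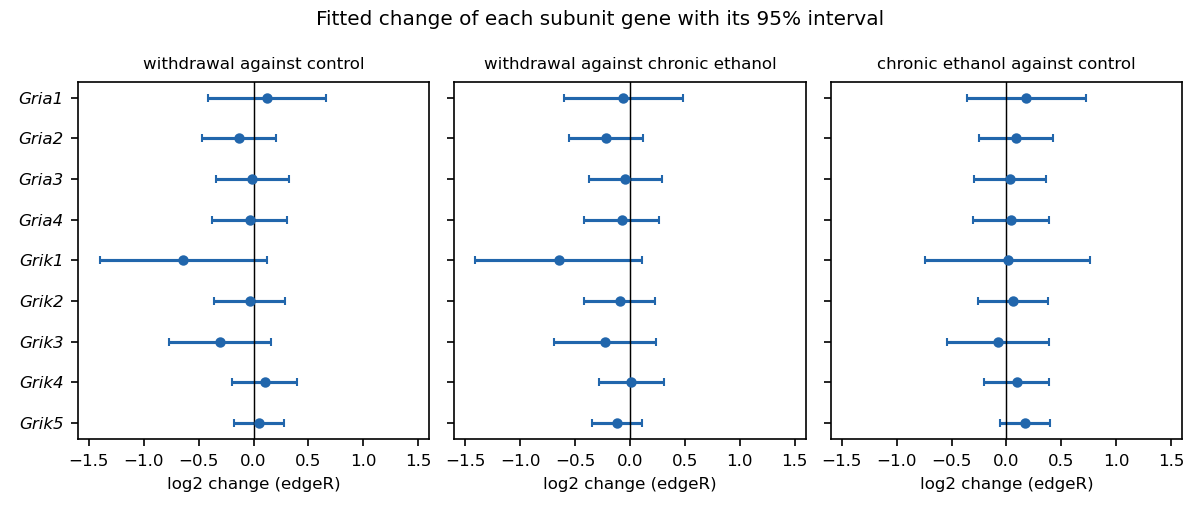
Fitted log2 change of each subunit gene (points) with its 95% interval (bars) in edgeR, in 3 panels, withdrawal against control, then against chronic ethanol, then chronic ethanol against control. Values above 0 mean higher in the group named first in each panel title. Every interval crosses 0, and those of Grik1 are the widest, at -1.40 to 0.12 in withdrawal against control.

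Gria2, the subunit that limits calcium entry, had a lowest, median and highest level of 132, 237 and 276 CPM in withdrawal rats, 172, 276 and 312 CPM in chronic ethanol rats, and 208, 247 and 305 CPM in control rats. Each lowest value belonged to a rat set apart by its markers, rat 13, rat 8 and rat 5. Its log2 change was -0.13 ± 0.16 (SE; 95% interval -0.47 to 0.21; adjusted p = 0.782 in edgeR) in withdrawal against control. Against chronic ethanol it was -0.22 in withdrawal (-0.55 to 0.12; adjusted p = 0.512 in edgeR), and in chronic ethanol against control 0.09 (-0.25 to 0.42; adjusted p = 0.999 in edgeR). Without rat 8 the difference between withdrawal and chronic ethanol was -0.31, with an unadjusted p of 0.0462 and an adjusted p of 0.350 in edgeR, and over all single rats left out it ran from -0.31 to -0.10. With the first index in the library names as a term it was -0.41 (unadjusted p = 0.0454, adjusted p = 0.361 in edgeR). In withdrawal against control the change was -0.60 with that term (adjusted p = 0.793 in edgeR) and ran from -0.20 to -0.013 with single rats left out. No index was shared by withdrawal and control rats, so the -0.60 runs through chronic ethanol rats 7 and 8.

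Gria1, whose subunit is delivered to synapses during activity-dependent strengthening, lay at 37.0, 53.1 and 61.0 CPM (lowest, median, highest) in withdrawal, 23.2, 59.7 and 70.5 in chronic ethanol and 18.4, 51.2 and 66.1 in control. The low ends were again rats 13, 8 and 5, and the remaining 14 rats spanned 44.0 to 70.5 CPM. Fitted log2 changes were 0.12 (-0.42 to 0.66; adjusted p = 0.882 in edgeR) in withdrawal against control, -0.06 (-0.60 to 0.48; adjusted p = 0.924) against chronic ethanol, and 0.18 (-0.36 to 0.72; adjusted p = 0.999) in chronic ethanol against control. Groups overlapped over most of their range.

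Gria3 and Gria4, the remaining AMPA subunits, had nearly equal group means. Gria3 averaged 134.5 ± 33.9 CPM in withdrawal, 138 ± 23.5 in chronic ethanol and 135 ± 9.99 in control (SD, n = 6 each). Gria4 averaged 176 ± 48.4 CPM in withdrawal, 186 ± 25.9 in chronic ethanol and 181 ± 24.8 in control. Withdrawal had the widest spread for both, from rat 13 at 73.9 and 92.4 CPM to rat 17 at 174 and 242 CPM. The 95% intervals of the 3 log2 changes reached from -0.37 to 0.36 for Gria3 and from -0.42 to 0.38 for Gria4.

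Grik1 varied most of the 9 genes. In withdrawal rats its lowest, median and highest levels were 5.86, 13.0 and 14.5 CPM, in chronic ethanol rats 9.18, 16.3 and 40.0, and in control rats 13.2, 14.0 and 43.2. Group means were 12.1 ± 3.22 CPM in withdrawal, 19.0 ± 11.0 in chronic ethanol and 18.8 ± 12.0 in control (SD, n = 6 each). The fitted log2 change was -0.64 (-1.40 to 0.12; unadjusted p = 0.0936, adjusted p = 0.547 in edgeR) in withdrawal against control and -0.65 (-1.41 to 0.11; adjusted p = 0.385) in withdrawal against chronic ethanol.

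Those Grik1 means rest on single rats. The direction also turned in 1 fit: with the first index in the library names as a term, the change of withdrawal against control was 0.40 (adjusted p = 0.882 in edgeR), and that against chronic ethanol -0.26 (adjusted p = 0.762). No index was shared by withdrawal and control rats, so the 0.40 joins contrasts made within an index. Chronic ethanol rats 7 and 8 against control had a log2 ratio of 0.67, with rat 8 at 40.0 CPM. Withdrawal rats 13 to 16 against chronic ethanol rats 9 to 12 had -0.26. Without control rat 5 the change of withdrawal against control was -0.21, and without chronic ethanol rat 8 the change against chronic ethanol was -0.29, each less than 1 of the original standard errors of 0.36 from 0. Without rat 13 these changes were -0.50 and -0.51. Other single rats left out gave larger changes, down to -0.72 in withdrawal against control and -0.79 against chronic ethanol. The -0.79 came without chronic ethanol rat 10 (unadjusted p = 0.0406, adjusted p = 0.346 in edgeR). Without control rat 5 the change against chronic ethanol was -0.65 (unadjusted p = 0.0355, adjusted p = 0.296 in edgeR). With rats 13, 17, 8 and 5 all left out, Grik1 averaged 13.4 ± 1.28 CPM in 4 withdrawal rats, 14.8 ± 4.26 in 5 chronic ethanol rats and 14.0 ± 0.71 in 5 control rats (SD). The log2 changes were then -0.06 in withdrawal against control (adjusted p = 0.957 in edgeR) and -0.14 against chronic ethanol (adjusted p = 0.758 in edgeR).

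Grik2 and Grik3, which also form channels on their own, did not separate the groups either. Grik2 averaged 23.6 ± 5.50 CPM in withdrawal, 25.1 ± 4.16 in chronic ethanol and 24.1 ± 2.12 in control (SD, n = 6 each). Grik3 averaged 16.4 ± 5.56, 19.2 ± 3.34 and 20.3 ± 5.20 CPM in these groups. The lowest Grik3 values were 8.24 CPM in rat 13 and 11.8 CPM in rat 17, and the highest was 28.4 CPM in rat 5. Its log2 change in withdrawal against control, -0.31 (-0.77 to 0.16; adjusted p = 0.616 in edgeR), became 0.066 without the 4 rats.

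Of the partner-dependent subunits, Grik4 averaged 64.9 ± 15.6 CPM in withdrawal, 64.4 ± 3.13 in chronic ethanol and 60.4 ± 8.24 in control. Its range in withdrawal ran from 35.6 CPM in rat 13 to 79.7 CPM in rat 17, which took in every value of the chronic ethanol and control rats. Without rat 13 its log2 change in withdrawal against control was 0.23, with an unadjusted p of 0.0180 and an adjusted p of 0.478 in edgeR. With all 18 rats it was 0.10.

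Grik5 averaged 69.0 ± 7.88 CPM in withdrawal, 74.9 ± 11.3 in chronic ethanol and 66.5 ± 9.34 in control, and had the narrowest intervals of the family. In chronic ethanol against control its log2 change was 0.17 (-0.06 to 0.40; adjusted p = 0.951 in edgeR). Without rat 6 it was 0.24 (unadjusted p = 0.0391, adjusted p = 0.757 in edgeR), and without rat 8 it was 0.23 (unadjusted p = 0.0457, adjusted p = 0.693). With all 18 rats the interval excludes a change beyond 1.32-fold upward or to below 0.962-fold. Across all members and comparisons the interval bounds ran from 0.377-fold to 1.70-fold, both of them Grik1.

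Shares of the AMPA pool were computed per kb, so that each subunit counts as transcripts rather than as sequenced bases. Over 18 rats Gria2 made up 32.6 ± 2.84% of AMPA subunit transcripts, Gria4 29.1 ± 2.67%, Gria3 22.3 ± 2.87% and Gria1 16.04 ± 3.296% (SD). The mean shares of Gria2 and Gria4 lie within their spread, and both depend on annotated exon length. Among kainate subunits Grik5 made up 41.9 ± 5.63%, Grik4 24.8 ± 3.36%, Grik2 17.8 ± 2.09%, Grik3 9.34 ± 2.08% and Grik1 6.13 ± 3.53%.

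The share of Gria2 among AMPA transcripts had a lowest, median and highest value of 26.1, 31.5 and 35.1% in withdrawal, 27.9, 33.7 and 38.3% in chronic ethanol and 31.7, 32.7 and 35.9% in control. Rat 17 gave the lowest share in withdrawal and rat 8 that in chronic ethanol, and the 3 groups overlapped. Means were 31.2 ± 3.07% in withdrawal, 33.4 ± 3.49% in chronic ethanol and 33.2 ± 1.52% in control (SD, n = 6 each). Withdrawal differed from control by -1.99 ± 1.40 percentage points (SE; two-sided exact permutation test, p = 0.193, adjusted over 3 comparisons 0.386). It differed from chronic ethanol by -2.22 ± 1.90 points (exact permutation p = 0.258, adjusted 0.386), and chronic ethanol differed from control by 0.23 ± 1.55 points (exact permutation p = 0.885). The smallest p that 924 splits of 6 against 6 allow is 0.00216.

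Single libraries moved this share. Without rat 17 the difference of withdrawal from control was -0.97 points (exact permutation p = 0.385), and without rat 15 it was -2.78 points (exact permutation p = 0.0476, adjusted 0.143). Against chronic ethanol the difference was -1.20 points without rat 17, -1.24 without rat 10 and -3.33 without rat 8 (exact permutation p = 0.494, 0.489 and 0.0693). As a share of counts instead of transcripts per kb, Gria2 made up 38.7% in withdrawal, 41.0% in chronic ethanol and 40.5% in control, and the differences were -1.84, -2.32 and 0.47 points in the order above.

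**Figure D3:**
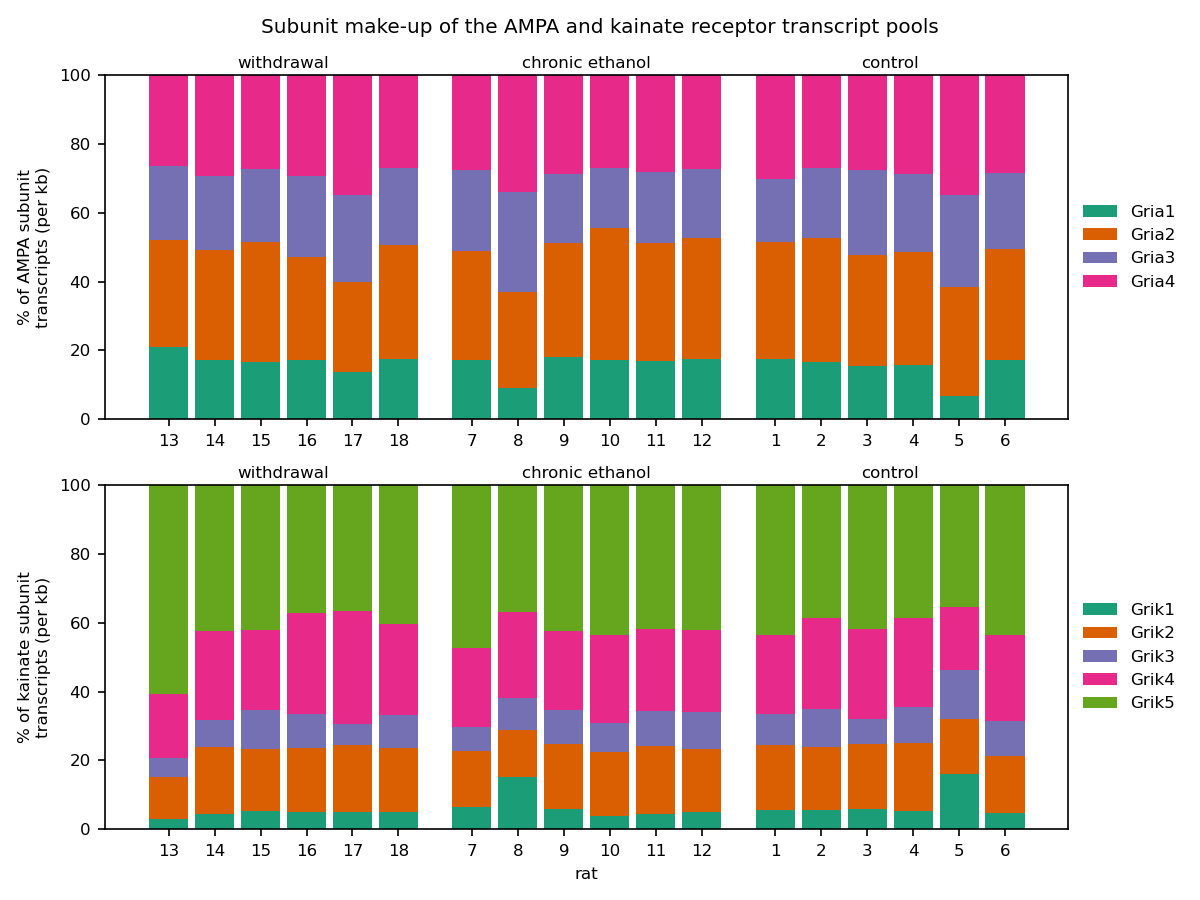
Make-up of the AMPA pool (upper panel) and the kainate pool (lower panel) in each rat, as percent of the family's summed CPM per kb, with withdrawal, chronic ethanol and control rats from left to right. In rats 8 and 5 the Gria1 share is smaller and the Grik1 share larger than in the other rats, and in rat 13 Grik5 takes 60.9% of the kainate pool.

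The proportion of the families to each other differed between groups by less than its spread. Summed AMPA subunits were at 106 ± 22.7 CPM per kb in withdrawal, 115 ± 18.5 in chronic ethanol and 109 ± 13.0 in control. Summed kainate subunits were at 42.9 ± 5.04, 46.6 ± 4.30 and 43.6 ± 3.95 CPM per kb in these groups. The ratio of the sums was 2.46 ± 0.36 in withdrawal, 2.46 ± 0.24 in chronic ethanol and 2.51 ± 0.29 in control (SD, n = 6 each). It was lowest in rat 13, at 1.84, and highest in rat 17, at 2.92.

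The first index sequence in the library names divides the rats unevenly over the groups, so values were also taken within each index. All 6 control rats share an index with chronic ethanol rats 7 and 8, a second index holds chronic ethanol rats 9 to 12 and withdrawal rats 13 to 16, and withdrawal rats 17 and 18 have another of their own. Within the first index the Gria2 share was 29.9% in 2 chronic ethanol rats and 33.2% in 6 control rats, a difference of -3.32 points (exact permutation p = 0.143). Splits of 2 against 6 are too few for this two-sided test to give a p under 0.05, so its p decides nothing. Within the second it was 32.0% in 4 withdrawal rats and 35.2% in 4 chronic ethanol rats, a difference of -3.20 points (exact permutation p = 0.0857). No index holds both withdrawal and control rats, so that comparison has no within-index value.

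Within the second index all 9 genes averaged lower in withdrawal than in chronic ethanol, with log2 ratios of the mean CPM from -0.07 for Grik5 to -0.41 for Gria2. Rat 13 is among those 4 withdrawal rats. Without it, a comparison added after the values were seen, 7 genes averaged lower and 2 higher, Gria3 at 0.043 and Grik4 at 0.069, and Gria2 was at -0.23. Within the first index chronic ethanol rats 7 and 8 had ratios to control of -0.20 for Gria1, -0.19 for Gria2 and 0.67 for Grik1. Those are based on 2 rats, of which rat 8 had the marker levels given above.

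The rats set apart by their markers also differed from the rest in subunit genes, which is given as a description. Relative to the median of the 14 remaining rats, Gria1 was at a log2 of -1.26 in chronic ethanol rat 8 and -1.59 in control rat 5. The 14 rats themselves spanned -0.33 to 0.35. Grik1 was at 1.51 and 1.62 in these rats, against -0.61 to 0.50 in the 14. Gria2 was below the range of the 14 in both, at -0.61 and -0.34 against a low of -0.24, and so was Grik2, at -0.52 and -0.26 against -0.23. In rat 5 Grik4 was also below it, at -0.47, and Grik3 above it, at 0.50. Gria3, Gria4 and Grik5 stayed inside the range in both rats.

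Some genes for companions of these subunits stood apart in the same rats. The AMPA auxiliary subunit gene Cacng3 was at 4.51 CPM in rat 8 and 3.78 CPM in rat 5, against 11.5 to 17.1 CPM in the 14. Cnih2, a cornichon that slows AMPA receptor kinetics, was at 19.5 and 16.9 CPM, against 30.1 to 53.7 CPM. The kainate auxiliary subunit genes were high, with Neto1 at 24.5 and 37.8 CPM against 8.54 to 16.6 CPM, and Neto2 at 36.4 and 56.6 CPM against 20.4 to 27.7 CPM. Over the whole list of 24 AMPA auxiliary and associated genes, 7 were below the range of the 14 in both rats, 4 were above it in both (Olfm1, Nrn1, Syndig1 and Rap2b), and 13 were neither. Scaffold and trafficking genes went differently, with 3 of 27 below it in both rats, 8 above it in both and 16 neither. Of all 62 companion genes, 12 were below, 16 above and 34 neither. The share of all tested genes outside the range in both rats was not counted. Olfm1 was at 528 and 664 CPM in rats 8 and 5, against 140 to 222 CPM. Of the 3 RNA editing genes, Adarb1, the enzyme that edits Gria2 transcripts, was at 561 and 592 CPM against 230 to 467 CPM. Adarb2 went the other way, at 30.3 and 40.1 CPM against 45.3 to 92.6 CPM, and Adar was neither above nor below in both rats.

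Rat 13 showed another arrangement. All subunit genes except Grik5 were below the range of the 14. Relative to the median of the 14, their log2 values ran from -0.58 for Gria1 to -1.29 for Grik3, while Grik5 was at 0.08. The low ends of the range were -0.33 for Gria1 and -0.69 for Grik3. Rat 13 also had the lowest marker sums in withdrawal for astrocytes (2691 CPM), oligodendrocyte precursors (351), oligodendrocytes (16615) and microglia (143). For general neuron markers the lowest sum in withdrawal was that of rat 14, at 5735 CPM. Of these markers in rat 13, Snap25 was above the range of the 14, at 3565 CPM against 1795 to 2368 CPM. Syt1, Rbfox3, Tubb3, Stmn2 and Eno2 were below their ranges, and Nefl and Nefm inside. Among subunit genes, rat 17 was above the range of the 14 for Gria3, Gria4 and Grik4, at log2 values of 0.34, 0.38 and 0.29. It was below that range for Gria2, Grik3 and Grik5, at -0.24, -0.77 and -0.32. The share of all tested genes outside the range of the 14 in these rats was not counted. Such values are therefore not shown to be particular to the subunits. How far the marker differences of these rats bear on their subunit levels was not tested.

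**Figure D4:**
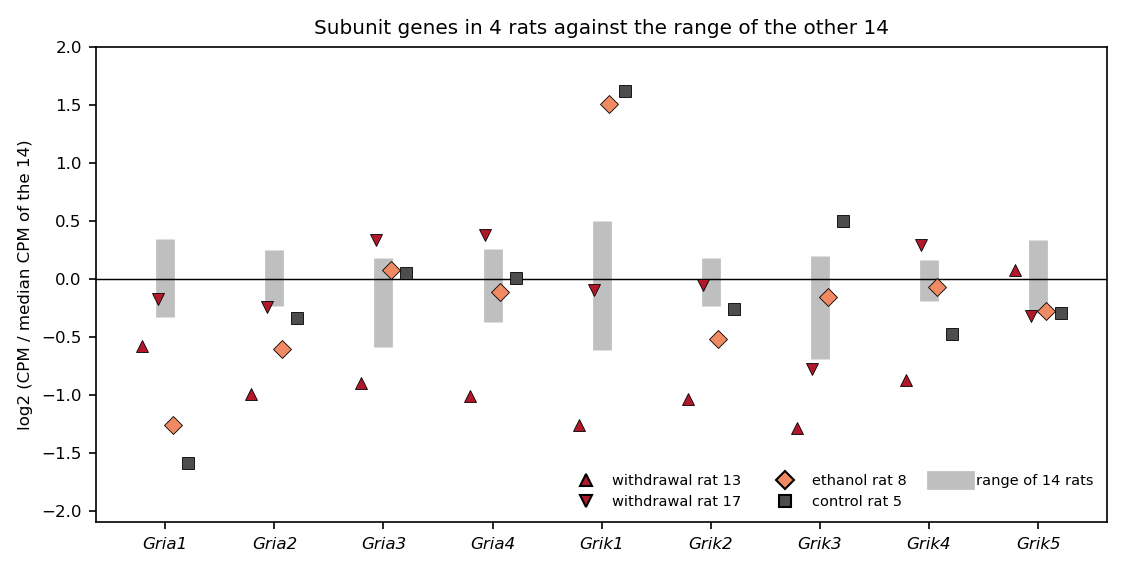
Level of each subunit gene in withdrawal rats 13 and 17, chronic ethanol rat 8 and control rat 5, as log2 of the CPM over the median of the other 14 rats, whose range is the grey bar. Rats 8 and 5 lie below the bar for Gria1 and above it for Grik1, and rat 13 lies below it for every gene but Grik5.

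Over the 14 remaining rats the subunit genes varied less. The coefficient of variation of CPM was 57.5% for Grik1 over 18 rats and 18.0% over 14, and for Gria1 it was 26.7% and 13.1%. Grik4 and Grik2 had the smallest over 14 rats, 7.45% and 8.17%, and the median over all tested genes was 17.8% over 18 rats and 11.5% over 14. Gria1 made up 17.0 ± 0.71% of AMPA transcripts in those 14 rats (SD), within a range of 15.4 to 18.0%.

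The genes whose log2 CPM ran most nearly parallel to each member over the 18 libraries were looked up among 14358 named genes averaging 1 CPM or more. Gria1 was matched most closely by Cacng3 (Pearson r 0.97, Spearman rho 0.85; r 0.77 over the 14 rats), and Gria2 by Tmx4 (r 0.97, rho 0.91; 0.86) before Frrs1l, which acts in AMPA receptor assembly (r 0.96, rho 0.92; 0.83). Gria3 was matched by Prkar1b (r 0.96, rho 0.85; 0.90) and Gria4 by Camta1 (r 0.97, rho 0.91; 0.92). These correlations are descriptive, since every point shares its library, tissue piece and depth, and rats 13, 8 and 5 span much of the range.

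For the kainate genes the closest were Abtb3 for Grik1 (r 0.98, rho 0.82; 0.84 over the 14), Dscam for Grik2 (r 0.97, rho 0.84; 0.84) and Pcsk1 for Grik3 (r 0.95, rho 0.91; 0.86). Grik4 was matched by Syt11 (r 0.93, rho 0.94; 0.86) and Grik5 by Cdc42bpb (r 0.91, rho 0.86; 0.89). Second in the order came Traf3 for Gria1, Herc3 for Gria3, Chic1 for Gria4, Arl4c for Grik1, Frrs1l for Grik2, Dnajc6 for Grik3, Kndc1 for Grik4 and Spindoc for Grik5, with r from 0.87 to 0.97.

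The 62 genes of 5 companion lists (24 AMPA auxiliary and associated proteins, 6 of AMPA assembly and turnover, 2 kainate auxiliary subunits, 27 of scaffold and trafficking, 3 of RNA editing) were all measured and tested. No companion gene was called in any comparison by edgeR, DESeq2 or limma-voom. At an unadjusted p under 0.05 edgeR had 1 of 62 (1.61%) in withdrawal against control, 8 (12.9%) in withdrawal against chronic ethanol and 3 (4.84%) in chronic ethanol against control, against 9.82, 15.3 and 5.84% of all genes. Fitted changes were above 0 for 25 and below for 37 in withdrawal against control, 11 and 51 against chronic ethanol, and 47 and 15 in chronic ethanol against control. Their medians were -0.05, -0.11 and 0.10, against 0.015, 0.016 and -0.0039 over all genes. As the comparisons share groups, these counts too are not separate evidence.

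Among scaffold and trafficking genes, 6 of 27 (22.2%, against 15.3% of all genes) had an unadjusted p under 0.05 in withdrawal against chronic ethanol. There were 1 of 27 (3.70%, against 9.82%) in withdrawal against control and 3 of 27 (11.1%, against 5.84%) in chronic ethanol against control. Homer1, a postsynaptic scaffold protein, averaged 22.2 ± 1.63 CPM in withdrawal and 26.1 ± 2.18 CPM in chronic ethanol (SD, n = 6 each; log2 change -0.24, adjusted p = 0.250 in edgeR). It did not pass the test.

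Nptx1, a secreted pentraxin that clusters AMPA receptors, had the largest fitted difference of the companions named here, a log2 of 1.37 ± 0.43 in withdrawal against control (adjusted p = 0.389 in edgeR). Its lowest, median and highest levels were 61.0, 74.2 and 384 CPM in withdrawal and 23.3, 54.0 and 71.5 CPM in control, and the highest was rat 13. Dlg4, the scaffold PSD-95, was at 310 ± 84.1 CPM in withdrawal and 261 ± 32.6 CPM in control (adjusted p = 0.541), again with rat 13 highest. In chronic ethanol against control the lowest p of this list belonged to the scaffold gene Shank3, at 102.4 ± 68.7 CPM in chronic ethanol and 64.0 ± 6.39 CPM in control (adjusted p = 0.808), and the kinase gene Camk2a, at 44.8 ± 29.1 and 25.9 ± 9.43 CPM in these groups (adjusted p = 0.834), with rat 7 highest for both.

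AMPA auxiliary genes had 0, 2 and 0 of 24 at an unadjusted p under 0.05 in withdrawal against control, in withdrawal against chronic ethanol, and in chronic ethanol against control. The 2 of 24 are 8.33%, where 15.3% of all genes passed that threshold. Shisa9, which modulates AMPA receptor desensitization, averaged 111 ± 20.3 CPM in withdrawal, 131 ± 10.2 in chronic ethanol and 114 ± 8.00 in control (adjusted p = 0.311 in withdrawal against chronic ethanol and 0.884 in chronic ethanol against control, edgeR). Cacng5 averaged 6.05 ± 1.15 CPM in withdrawal and 10.5 ± 7.56 CPM in chronic ethanol (adjusted p = 0.317), where rat 9 had 25.1 CPM. The remaining genes with the lowest p were Olfm2 and Nrn1 in withdrawal against control, with adjusted p of 0.547 and 0.583, and Cnih2 in chronic ethanol against control, at 0.937.

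The assembly, kainate auxiliary and editing lists had no gene at an unadjusted p under 0.05 in any comparison by edgeR. DESeq2 called 0 of these genes at an adjusted p under 0.05. Porcn, of AMPA receptor assembly, averaged 33.3 ± 4.74 CPM in withdrawal and 38.3 ± 4.13 CPM in chronic ethanol (adjusted p = 0.333), and Abhd12 and Sacm1l were the others of that list with the lowest p. Neto1 averaged 14.3 ± 4.38 CPM in withdrawal, 14.8 ± 5.60 in chronic ethanol and 16.2 ± 10.8 in control, and Neto2 24.0 ± 3.41, 24.6 ± 5.96 and 29.7 ± 13.4 CPM. Adarb1 averaged 254 ± 39.6 CPM in withdrawal, 342 ± 137 in chronic ethanol and 312 ± 139 in control, while Adar averaged 256 ± 23.4 CPM in withdrawal and 265 ± 11.9 CPM in control. Adarb2, which lacks known editing activity, averaged 51.1 ± 12.9 CPM in withdrawal and 64.0 ± 20.6 CPM in chronic ethanol (adjusted p = 0.482).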

How the data were processed

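The deposited values are counts of read pairs per gene, made by the authors with featureCounts 1.5.0 on the reverse strand, per the file headers, from reads aligned with STAR 2.5.2a to Rnor_6.0, per the submitters' processing notes, which also name R 3.3.3 and limma. Pairs matching several places or genes were not counted, per the file headers. The other value used, the exon length per gene, was deposited by the authors beside the counts. Symbols for 29322 of 38445 genes were looked up by gene identifier in a table of RefSeq genes; its assembly is later than Rnor_6.0, so only names were taken. No genome or protein sequence was used here.

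Counts were scaled with TMM, filtered with filterByExpr and fitted in edgeR 4.0.16 under R 4.3.3 with its quasi-likelihood test over all 18 libraries, two-sided, with Benjamini-Hochberg adjustment over the 17637 genes left. The standard error of a log2 change was calculated back from its test. Intervals are at 95%. CPM per kb divides by deposited exon length. Counting precision follows depth: 29.6 to 45.1 M counts per library, with no molecular identifiers, so the floor of 3 counts covers counting error only. Nothing in the labels says whether rats shared a litter or cage. No 2 libraries of a group were copies: their chi-square was at least 12.4 times its degrees of freedom.

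The alternatives were RLE scaling, no filter, a filter of 1 CPM in 6 libraries, DESeq2 1.42.0, limma-voom (limma 3.58.1), only the 2 groups compared, the first index as a term, 4 rats left out, each rat left out, and shares of counts. Leaving rat 13 out of the second index was a later addition, made with its values known. The members, lists and rats set apart were chosen with earlier results of these data known. The rule named all members, called companions and the 2 of each list with the lowest p per comparison, 6 tissue markers and the 2 genes most correlated with each member. Cacng3 and Cnih2 in rats 8 and 5 were named after their values were seen. For 1 companion gene under this rule, values are not reported here.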

Additional observations from a re-analysis of the deposited data

Results flagged for a closer look

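In groups of 6 rats, the gap between the highest or lowest rat and its nearest neighbour was compared with the whole range of the group by Dixon's criterion, in 30 groups (9 genes and the Gria2 share in each of the 3 diets). It singled out 5 values. Chance alone gives about 1 in 20 groups where groups are independent and values normal. These groups share the same 18 libraries, and the Gria2 share is made from 4 of the genes, so the 5 cannot be set against that rate. Grik1 was singled out in all 3 groups. Withdrawal rat 13 was low at 5.86 CPM, with the other withdrawal rats at 11.9 to 14.5 CPM. Chronic ethanol rat 8 was high at 40.0 CPM, with the others at 9.18 to 19.9 CPM, and control rat 5 was high at 43.2 CPM, with the others at 13.2 to 15.0 CPM. Grik2 was low in withdrawal rat 13 at 12.6 CPM, with the others at 24.1 to 27.2 CPM. Gria3 was low in chronic ethanol rat 10 at 92.1 CPM, with the others at 140 to 157 CPM. Rats 13, 8 and 5 are those with the pineal, VGLUT1 or hindbrain marker levels given in the report, and the part of the tissue they mark in these values was not tested. Rat 10 had none of these marker levels. It had the highest summed astrocyte markers (7 genes) of the chronic ethanol rats, 7601 CPM, and the lowest summed general neuron markers (8 genes), 4732 CPM, and their part was not tested.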

How the results depend on the processing

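The count of 0 called subunit genes and 0 called companion genes held under every setting run. Over the 702 alternative values of subunit changes the lowest adjusted p was 0.296 (Grik1, withdrawal against chronic ethanol, without control rat 5), and 7 had an unadjusted p under 0.05. The count over all genes was 0 in edgeR, while DESeq2 called 47 in withdrawal against control, 301 in withdrawal against chronic ethanol and 46 in chronic ethanol against control. In chronic ethanol against control, limma-voom, the fit of only those 2 groups, the index term and the fit without the 4 rats each called 2, and the fit without the 4 rats also called 2 in withdrawal against chronic ethanol. Leaving out 1 rat gave 0 to 2, 0 to 24 and 0 to 4 calls, in the order of comparisons used for DESeq2. The most came without rat 13, rat 18 and rat 13, and withdrawal against chronic ethanol also gave 22 without rat 13 and 12 without rat 11.

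Several changes crossed 0, that of Grik1 from -0.64 and the others from between -0.31 and 0.18, and the cause was not tested. The index term reduces chronic ethanol against control to rats 7 and 8 against the 6 control rats. It reduces withdrawal against chronic ethanol to rats 13 to 16 against rats 9 to 12. Withdrawal against control then joins these contrasts, since no index holds both groups. With the index as a term, withdrawal against control gave -0.47 for Gria1, 0.026 for Gria3 and 0.40 for Grik1, withdrawal against chronic ethanol -0.11 for Grik4, and chronic ethanol against control -0.20 for Gria1, -0.19 for Gria2, -0.00011 for Gria4 and -0.14 for Grik2. Without the 4 rats, withdrawal against control gave 0.055 for Gria3, 0.0073 for Gria4, 0.071 for Grik2 and 0.066 for Grik3, withdrawal against chronic ethanol 0.027 for Gria3 and 0.0085 for Grik3, and chronic ethanol against control 0.057 for Grik3. limma-voom gave 0.0036 for Gria1 and -0.035 for Grik4 in withdrawal against chronic ethanol.

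Leaving out 1 rat at a time, ranges crossing 0 in withdrawal against control were -0.044 to 0.24 for Gria1, -0.10 to 0.11 for Gria3, -0.15 to 0.095 for Gria4 and -0.088 to 0.093 for Grik2. In withdrawal against chronic ethanol they were -0.21 to 0.029 for Gria1, -0.14 to 0.082 for Gria3, -0.19 to 0.055 for Gria4, -0.17 to 0.033 for Grik2 and -0.058 to 0.14 for Grik4. In chronic ethanol against control they were -0.0071 to 0.12 for Gria3, -0.020 to 0.11 for Gria4, -0.35 to 0.44 for Grik1 and -0.18 to 0.043 for Grik3, and the Gria2 share differed by -0.76 to 1.33 points. No paired analysis was possible because each rat carries its own number and belongs to 1 group. Depth does not limit the subunit values, as the lowest count was 217.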
